A study of Mus musculus with 4 samples.

Results

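The data described here are the transcripts of 9 genes that mark naive and stem-like T cells or control their exit from tissue: Tcf7, Lef1, Satb1, Bach2, Id3, Slamf6, Klf2, S1pr1 and Cd69. They were chosen by name as 9 of the 32285 genes in the table, and all 9 were found. They were followed in 1945 cells of 8 lymphoid clusters (CD4, CD8 1 to CD8 4, Tregs, NK and γδT cells), of 4108 CD45+ cells in all.

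Tcf7 and Lef1 encode the sister transcription factors TCF1 and LEF1, which bind the same DNA core and maintain naive and stem-like T cells. In tumors, CD8+ T cells that keep TCF1 together with PD-1 are known as stem-like, and they give rise to the more differentiated exhausted cells. Satb1 organizes chromatin in the thymus and in naive T cells, Bach2 represses effector genes, Id3 opposes E proteins in memory precursors, and Slamf6 is a surface receptor used to sort stem-like cells. The remaining members act on egress: S1pr1 is the receptor that draws T cells out of tissue along a gradient of sphingosine 1-phosphate, Klf2 is the transcription factor that switches S1pr1 on, and CD69 is the surface protein that pulls the receptor back into the cell.

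The cells came from tumors of 20967, a melanoma line from a C57BL/6 mouse with an Nras allele (+LSL-G12D) and Tyr::CreERT2 (a Cre under the melanocyte tyrosinase promoter, +/o), implanted in wild type C57BL/6 mice whose ages were not given in the sources used here. In the control group 5 tumors received the control treatment, and in the GC group 5 tumors received clobetasol propionate, a potent topical glucocorticoid (GC), before harvest. Live CD45+ cells were sorted. Each tumor carried its own hashtag, the 5 tumors of a group were pooled, and 17100 control cells and 3500 GC cells were loaded, each pool into a 10x channel of its own. The effect of treatment therefore cannot be told apart from that of the channel.

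Expression was counted in UMIs (unique molecular identifiers, 1 for each RNA molecule captured) and is given as UMIs per 10000 UMIs of a cell, averaged over the cells of a tumor. The control tumors gave 347 to 1250 cells and the GC tumors 18 to 111, with a median of 7440 and 9163 UMIs per cell. No cell barcode was shared between the channels (0 of 4108). Cluster names were checked against markers: Cd8a lay between 3.53 and 6.69 in the control cells of the 4 CD8 clusters, Foxp3 reached 4.59 in Tregs, Ncr1 2.81 in NK cells and Trdc 5.57 in γδT cells. The CD4 cluster was not pure, with Cd4 at 1.44, Cd8a at 0.76, the γδT gene Trdc at 0.51 and the B cell gene Ighm at 1.79. The 4 GC cells of the NK cluster held no UMI of Klra8 and Gzma at 0.95, against 6.17 and 31.9 in control, and the 11 GC γδT cells had Il17a at 0.47, against 7.91. Because reads in introns were counted, long genes collect more UMIs, so levels are compared for 1 gene across cells and never between genes.

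The start sites of Tcf7, Lef1 and Klf2 are printed here because the balance of Tcf7 and Lef1 between clusters, and Klf2 beside S1pr1, are described in detail. Each is a 300-base window across a RefSeq start site (GRCm38.p6), 5′ to 3′ on the gene's own strand. Capitals mark the KLF box CCACCC or its reverse complement. Tcf7 lies on the minus strand, window chr11:52282965-52283264, Lef1 on the plus strand, chr3:131110047-131110346, and Klf2 on the plus strand, chr8:72318812-72319111.
Tcf7: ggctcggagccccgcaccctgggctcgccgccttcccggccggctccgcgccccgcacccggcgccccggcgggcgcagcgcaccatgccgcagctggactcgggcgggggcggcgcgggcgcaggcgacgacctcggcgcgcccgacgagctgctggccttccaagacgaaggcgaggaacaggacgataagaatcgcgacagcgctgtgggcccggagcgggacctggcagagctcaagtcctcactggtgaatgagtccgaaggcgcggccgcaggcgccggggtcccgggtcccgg
Lef1: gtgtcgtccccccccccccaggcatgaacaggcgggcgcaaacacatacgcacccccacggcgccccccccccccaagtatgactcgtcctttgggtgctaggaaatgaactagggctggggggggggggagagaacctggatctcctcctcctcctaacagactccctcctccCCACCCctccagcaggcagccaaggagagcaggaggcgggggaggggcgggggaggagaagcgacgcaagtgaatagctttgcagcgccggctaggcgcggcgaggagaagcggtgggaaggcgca
Klf2: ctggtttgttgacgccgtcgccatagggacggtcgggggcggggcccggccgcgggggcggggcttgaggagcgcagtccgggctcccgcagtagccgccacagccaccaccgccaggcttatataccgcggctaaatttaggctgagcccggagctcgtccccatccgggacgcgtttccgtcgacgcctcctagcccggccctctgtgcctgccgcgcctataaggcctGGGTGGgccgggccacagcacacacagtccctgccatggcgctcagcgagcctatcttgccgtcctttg
These Lef1 and Klf2 windows held 1 KLF box each and this Tcf7 window held 0, where 31.5% of 32851 RefSeq windows held at least 1. A second Tcf7 window, at chr11:52282546-52282845, held 1. Windows were given for 7 of the 9 members, S1pr1 and Cd69 being the others. In all windows of those 7 members, 0 matches were found to the glucocorticoid response element, searched on both strands as GNACA and TGTNC 3 bases apart, which occurred in 0.475% of all windows. The TCF/LEF core CTTTGA, present in 16.0% of all windows, occurred 1 time in the Bach2 window and 2 times in the fourth Lef1 window.

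Across the clusters of control tumors, 7 of the 9 genes had their highest mean in the CD4 or NK cluster, the exceptions being Cd69 and Id3. The clusters were defined from the expression of these same cells, so differences between them are described without a test. In the CD4 cluster Tcf7 (ENSMUSG00000000782, chr11:52252371-52283014 of GRCm38) was at 4.32, 5.56, 3.28, 6.79 and 4.09 in the 5 control tumors (replicates 1 to 5), a mean of 4.81 ± 1.38 (SD, n = 5). It was lower in NK cells, without overlap, at 2.33 ± 0.94 (n = 4 tumors with at least 10 cells). In CD8 1 it was at 0.861, 0.985, 1.11, 0.757 and 0.954, and in CD8 2 at 0.849, 0.463, 0.156, 0.701 and 0.325. The mean was thus higher in CD8 1 (0.934 ± 0.133) than in CD8 2 (0.499 ± 0.280), with ranges that overlapped. Tregs were lowest, at 0.032, 0.0188, 0.153, 0 and 0.0458, below every other lymphoid cluster.

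**Figure D1:**
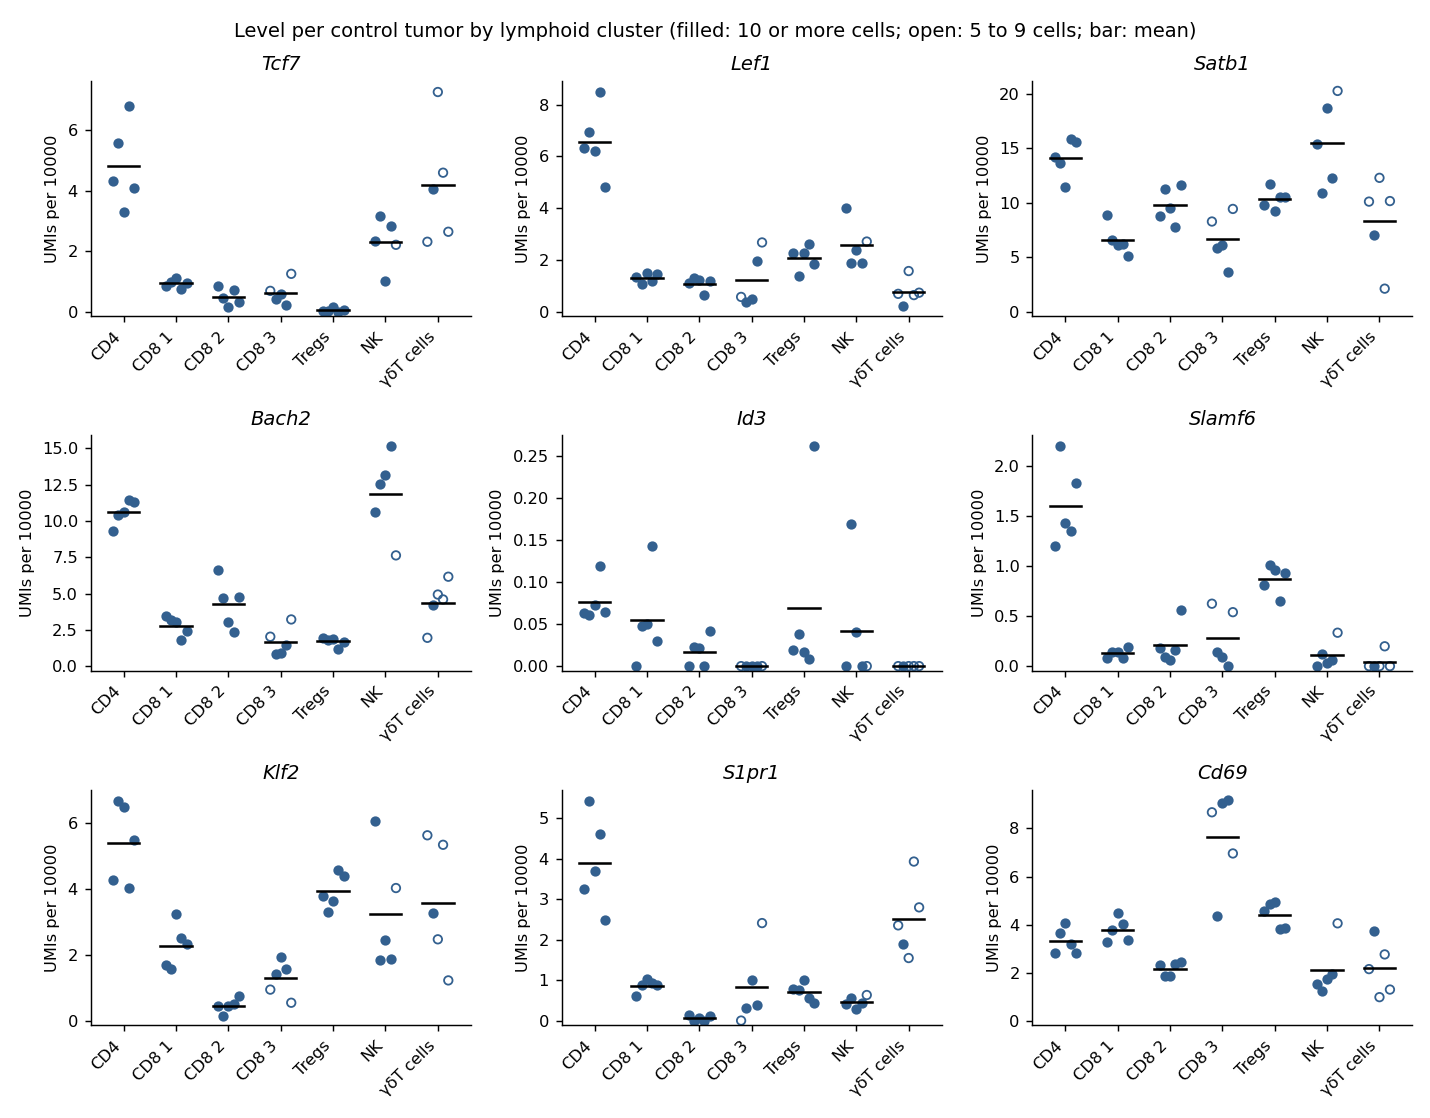
Level of each member (UMIs per 10000 UMIs, own scale per gene) by lymphoid cluster, with a point for each control tumor (filled, at least 10 cells; open, 5 to 9 cells) and a bar at their mean. CD8 4 is left out because only 2 control tumors held 5 of its cells. Tcf7 is near 0 in Tregs, S1pr1 is near 0 in CD8 2, and Cd69 is highest in CD8 3.

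Lef1 was highest in the CD4 cluster, at 6.33, 6.96, 6.21, 8.50 and 4.83, with no overlap with any other lymphoid cluster. NK cells (2.54 ± 1.01, n = 4) and Tregs (2.07 ± 0.48, n = 5) followed and overlapped each other. CD8 1 (1.31 ± 0.18) and CD8 2 (1.09 ± 0.27) overlapped as well.

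The balance of the sister genes differed between Tregs and γδT cells. In Tregs Lef1 was at 2.26, 1.37, 2.26, 2.61 and 1.83 while Tcf7 did not exceed 0.153. The 486 control Tregs held 594 UMIs of Lef1 and 20 of Tcf7, and the 43 control γδT cells held 19 and 127. Gene length bears on these counts, so they are read between the clusters and not between the genes. The γδT cluster had only 1 control tumor with at least 10 cells. With tumors of at least 5 cells admitted, a minimum chosen after seeing the data, γδT cells had Tcf7 at 2.31, 4.06, 7.26, 4.59 and 2.64 and Lef1 at 0.688, 0.209, 1.57, 0.639 and 0.733. The Tcf7 level in γδT cells was above that in Tregs in 5 of 5 tumors, and the Lef1 level was below it in 5 of 5.

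The UMIs of Tcf7 as a percent of the UMIs of Tcf7 and Lef1 together put this on a single scale. On it the order of values does not depend on gene length, but the percents themselves and the size of a gap between clusters do. The percent was 86.2 ± 6.45 in γδT cells (n = 5; lowest 77.8, highest 94.9) and 2.78 ± 3.11 in Tregs (n = 5; lowest 0, highest 8.02). The CD4 cluster (42.5 ± 3.04) and CD8 1 (44.4 ± 6.26) lay between and overlapped each other. NK cells ranged from 32.5 to 67.2 and CD8 2 from 10.6 to 44.9.

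**Figure D2:**
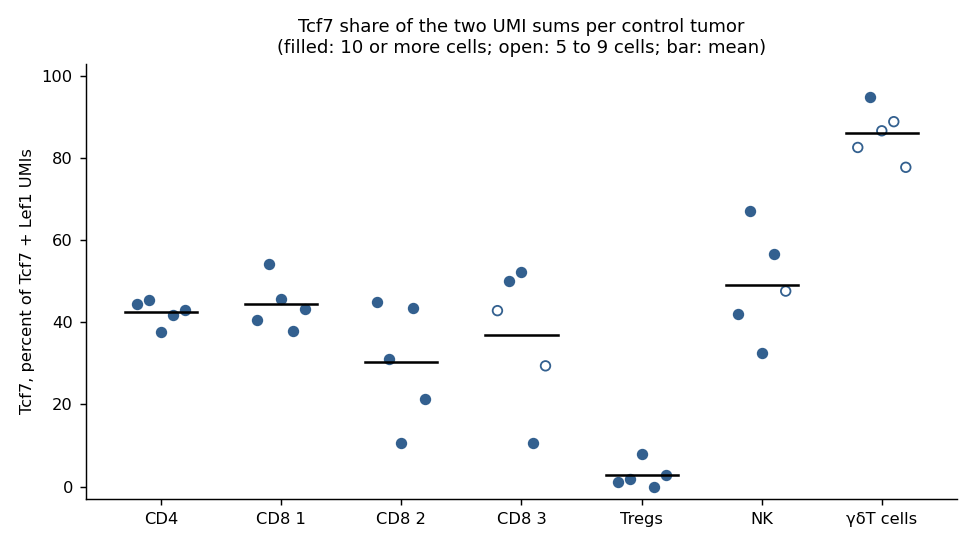
UMIs of Tcf7 as a percent of the summed UMIs of Tcf7 and Lef1 (vertical axis) by lymphoid cluster, with a point for each control tumor (filled, at least 10 cells; open, 5 to 9 cells) and a bar at the mean. Tregs stay at or below 8.02%, and γδT cells at or above 77.8%.

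Satb1 and Bach2, which hold back effector programs, were highest in the NK and CD4 clusters. Satb1 was at 14.3 ± 3.46 in NK cells (n = 4) and 14.2 ± 1.75 in the CD4 cluster (n = 5), and its lowest mean was 5.19 ± 1.33 in CD8 3 (n = 3). Bach2 was at 12.9 ± 1.87 in NK cells and 10.6 ± 0.853 in the CD4 cluster, above 6.59, the highest tumor value of any other lymphoid cluster. Tregs had Bach2 at only 1.70 ± 0.305. Both genes had a higher mean in CD8 2 than in CD8 1 (Satb1 9.78 ± 1.62 against 6.59 ± 1.37, Bach2 4.28 ± 1.66 against 2.78 ± 0.671), in each case with overlapping ranges.

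Slamf6 and Id3 were sparse in CD8+ T cells. Slamf6 was at 1.20, 2.20, 1.44, 1.35 and 1.83 in the CD4 cluster and at 0.808, 1.01, 0.958, 0.652 and 0.935 in Tregs, ranges that did not overlap. In CD8 1 it reached 0.127 ± 0.0463 and in CD8 2 0.210 ± 0.200. Id3 did not exceed 0.261 in any lymphoid cluster with at least 10 cells in a control tumor, and the 880 control CD8 T cells (clusters CD8 1, CD8 2 and CD8 3) held 17 UMIs of it in 14 cells.

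The egress genes separated CD8 2 from CD8 1. S1pr1 (ENSMUSG00000045092, chr3:115710433-115715072 of GRCm38) was at 0.597, 0.872, 1.03, 0.934 and 0.876 in CD8 1 and at 0.126, 0, 0.0646, 0 and 0.107 in CD8 2, so the groups of tumors did not overlap. Klf2 followed the same order, at 1.70, 1.56, 3.22, 2.50 and 2.31 in CD8 1 and at 0.427, 0.140, 0.452, 0.492 and 0.759 in CD8 2. Cd69 was also lower in CD8 2 (2.17 ± 0.281) than in CD8 1 (3.78 ± 0.494), without overlap.

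S1pr1 was highest in the CD4 cluster (3.26, 5.43, 3.70, 4.60 and 2.48), and in γδT cells it was at 2.50 ± 0.928 (5 tumors with at least 5 cells), with overlap. Tregs carried Klf2 at 3.93 ± 0.532, without overlap with CD8 1, yet their S1pr1 (0.709 ± 0.222) overlapped that of CD8 1 (0.862 ± 0.161). Cd69 had its highest mean in CD8 3, at 7.54 ± 2.76 (n = 3), where it overlapped the Treg range (4.41 ± 0.539). The lowest mean of Cd69 was in NK cells, at 1.61 ± 0.304 (n = 4).

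Pearson's r across the 29 pairs of a cluster and a control tumor with at least 10 cells describes which members varied together. The pairs share tumors, clusters and depth, so r is given without a p. It was highest for Klf2 with S1pr1 (0.82), followed by Tcf7 with Bach2 (0.76) and Satb1 with Bach2 (0.73), and it was lowest for Bach2 with Cd69 (-0.60). Tcf7 with Lef1 gave only 0.35. Among 3769 genes with a mean of at least 0.5, the patterns most like Tcf7 were those of Rplp1 (0.90), mt-Nd2 (0.89) and mt-Atp6 (0.89), ribosomal and mitochondrial genes. Klf2 was most like Rasa3 (0.88), Arhgef18 (0.84) and Tsc22d3 (0.82), the last a known GC target, and Cd69 most like 1600014C10Rik (0.80), Ccnd2 (0.80) and Samhd1 (0.80).

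Within the 880 control CD8 T cells, members were also counted cell by cell. A UMI of S1pr1 was found in 40.6% of the 217 cells with a UMI of Tcf7 and in 12.2% of the 663 without, at a median of 6682 and 6956 UMIs per cell. Bach2 was found in 71.9% and 46.8% of these cells and Cd69 in 64.5% and 63.2%. A UMI of Klf2 was found in 61.5% of the 169 cells with S1pr1 and in 22.8% of the 711 without. These cells come from 5 tumors and several clusters and are not replicates, so no test was made.

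Outside the lymphoid clusters some members were well detected. In control cells Klf2, which is also known from myeloid cells, reached 6.98 in neutrophils (exact 95% Poisson interval 6.36 to 7.64) and 5.47 in the cluster Monocytes 2 (5.10 to 5.86), as pooled UMIs per 10000. Tcf7 reached 1.07 in DC 1 (0.916 to 1.25) and 0 in DC 2. Bach2 was at 3.42 in tumor-associated macrophages (TAMs; 3.30 to 3.54). S1pr1 was near 0 in TAMs, at 0.0171. These intervals and those that follow cover counting error only.

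The question for the treatment was whether GCs changed the stem-like and egress genes of CD8+ T cells. In CD8 T cells, 1 of the 7 members tested passed the threshold: S1pr1 was lower after GC. It was at 0.405, 0.541, 0.739, 0.639 and 0.757 in the control tumors and at 0, 0.324, 0.118, 0 and 0.0998 in the GC tumors (replicates 1 to 5). Every GC tumor lay below every control tumor. GC replicates 1 and 4 held 7 and 9 CD8 T cells and did not enter the test, which needed 10. The log2 change was -1.41 ± 0.29 (SE, 5 control and 3 GC tumors, limma adjusted p = 0.0163), with a mean of 0.181 ± 0.125 (SD) after GC and 0.616 ± 0.146 in control.

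Of the 6158 genes tested in this comparison 309 passed, which is 5.02%, with 2.74% called lower and 2.27% higher. Among all genes tested, 6.89% did not overlap between the groups in tumors with at least 5 cells, 4.3% in the lower direction and 2.59% in the higher. The split of calls depended on scaling, with 45.3% of calls higher after GC here, 59.8% with median-of-ratios scaling and 63.2% with edgeR on summed UMIs. The median log2 change over all genes was -0.09. S1pr1 stayed lower under each alternative, at -1.97 (adjusted p = 0.0140) with all 5 GC tumors, where 3.15% of genes passed, and -1.91 (0.0128) with edgeR, where 6.17% did. The change was smaller, at -0.72, with a pseudocount of 0.5 (adjusted p = 0.0166), and at -0.20 on the mean of the deposited log values. Its adjusted p rose above the threshold of 0.05 on those log values (0.0849) and without control replicate 3 (0.0570), 4 (0.0528) or 5 (0.0535).

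In pooled cells, 13 UMIs of S1pr1 were found in 107 GC cells and 368 in 880 control cells, or 0.125 per 10000 (interval 0.0667 to 0.214) against 0.601 (0.542 to 0.666). After thinning every cell to 2000 UMIs, 2.68% of GC and 9.48% of control CD8 T cells held S1pr1 (10.3% and 19.2% unthinned). In TAMs, where S1pr1 was near 0, 0.332% of control cells held it at 2000 UMIs. CD8 T cells were deeper after GC, with a median of 9741 against 6826 UMIs. The summed level of 6 macrophage markers in CD8 T cells moved with the groups, at 0.546 to 1.00 per 10000 in control and 0.113 to 0.266 in GC tumors, with 0 of the 6 markers at 0 in either group. In CD8 T cells without a UMI of these markers, S1pr1 changed by -1.41 (adjusted p = 0.0236), as an alternative added after seeing the data.

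**Figure D3:**
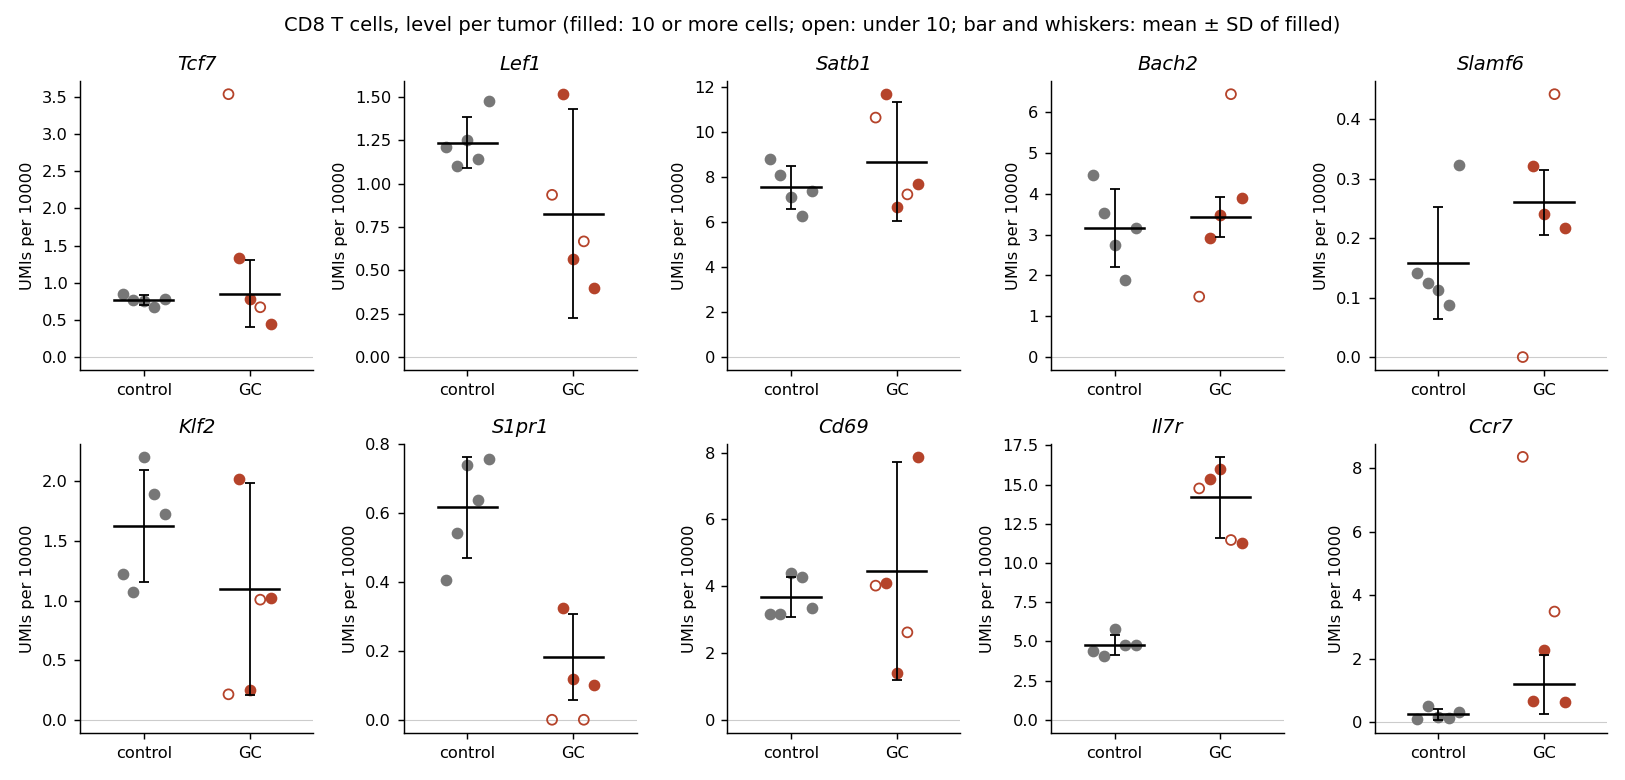
Level (UMIs per 10000 UMIs, own scale per gene) of 8 members and of Il7r and Ccr7 in CD8 T cells of each control tumor (gray) and GC tumor (red). Filled points have at least 10 cells and give the bar and whiskers (mean ± SD), and open points have under 10. S1pr1 is lower and Il7r higher in every GC tumor, and Tcf7 overlaps.

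Tcf7 did not pass the test. It was at 0.848, 0.771, 0.749, 0.678 and 0.788 in control and at 3.54, 1.33, 0.787, 0.670 and 0.444 in GC tumors. The GC values spread to both sides of the control range, the highest coming from 7 cells with 6 UMIs. The log2 change was 0.03 ± 0.26 (adjusted p = 0.955).

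The share of CD8 T cells with a Tcf7 UMI, at 2000 UMIs per cell, was 12.1% ± 1.18 in control (SD, n = 5) and 13.5% ± 6.16 after GC (n = 3; two-sided exact permutation p = 0.643). The share with both Tcf7 and Pdcd1, the transcript form of the stem-like definition, was 7.64%, 6.11%, 4.91%, 5.17% and 5.70% in control tumors and 7.75%, 10.3% and 5.85% in GC replicates 2, 3 and 5. The ranges overlapped, and the difference of 2.05 percentage points did not pass (exact permutation p = 0.143, 0.286 after adjustment over both shares). The smallest p this design allows is 0.0179. Unthinned, these shares were 25.4% and 34.7% for Tcf7 and 19.4% and 28.4% for the pair. In control TAMs 0.161% of cells held Tcf7 at 2000 UMIs.

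Lef1 was at 1.21, 1.10, 1.25, 1.14 and 1.47 in control and at 0.935, 1.52, 0.563, 0.667 and 0.400 in GC tumors. In 4 of 5 GC tumors it lay below every control tumor, and in GC replicate 2, with 12 CD8 T cells, it was above them. The change of -0.71 ± 0.31 did not pass (adjusted p = 0.204). Without GC replicate 5 it was -0.36 (adjusted p = 0.439), without GC replicate 2 it was -1.21 (0.000526), and with CD8 1 and CD8 2 weighted equally, which also drops GC replicate 2, -1.12 (0.00130).

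Klf2 was at 1.22, 1.07, 2.20, 1.90 and 1.72 in control and at 0.213, 2.02, 0.25, 1.01 and 1.02 in GC tumors. Again 4 of 5 GC tumors were below every control tumor, and the change of -0.83 ± 0.45 did not pass (adjusted p = 0.311). It was -1.41 without GC replicate 2 (0.1004) and -0.12 without GC replicate 3 (0.823). A single GC cell held 26.0% of the 77 Klf2 UMIs of that group.

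Cd69 was at 3.18, 3.17, 4.38, 4.27 and 3.36 in control and at 4.01, 4.08, 1.39, 2.62 and 7.87 in GC tumors, which spread more widely to both sides. Its change was -0.02 ± 0.39 (adjusted p = 0.978). Satb1 (0.17 ± 0.17, adjusted p = 0.599) and Bach2 (0.16 ± 0.23, adjusted p = 0.714) did not pass either, and their ranges overlapped between groups. In this fit Slamf6 and Id3 were under the minimum mean of 0.2 and were not tested. Slamf6 lay at 0.142, 0.125, 0.114, 0.0876 and 0.322 in control and at 0, 0.322, 0.241, 0.442 and 0.218 in GC tumors. Pooled over CD8 T cells it was at 0.289 after GC (interval 0.195 to 0.413) and 0.141 in control (0.112 to 0.174). In CD8 1, where it was not tested either, the 54 GC cells held 12 UMIs of it and the 517 control cells 43. The pooled levels there were 0.249 after GC (0.128 to 0.434) and 0.130 in control (0.0940 to 0.175), intervals that overlapped. Id3 had 0 UMIs in 107 GC cells, whose interval reaches 0.0356 per 10000 and includes the control level of 0.0278, so a difference was not detectable at this depth.

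Within CD8 1 alone, S1pr1 was at 0.648, 0.204, 0 and 0.195 in GC replicates 2 to 5. Its change of -1.73 ± 0.47 missed the threshold (adjusted p = 0.0807, 5 control and 4 GC tumors), in a fit where 2.46% of 6150 genes passed (1.45% higher, 1.01% lower) and 0 of 7 members did. With at least 10 cells per tumor, which keeps GC replicates 3 and 5 and drops replicate 2, whose value overlapped control, it passed (-1.67, adjusted p = 0.00188), as it did with edgeR (-1.66, 0.0239), without GC replicate 2 (-2.19, 0.00932) and with a pseudocount of 0.5 (-0.89, 0.0459). Without any other single tumor it did not pass, with an adjusted p of up to 0.204. Lef1 changed by -0.93 ± 0.29 (adjusted p = 0.127), and it too passed with at least 10 cells (-1.10, 0.00776) or without GC replicate 4 (-1.21, 0.0164), while without any other single tumor it did not (adjusted p up to 0.304). Klf2 changed by -0.50 ± 0.44 (adjusted p = 0.602) and Tcf7 by -0.02 ± 0.26 (0.978).

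Within CD8 2, S1pr1 was too low to test, with 12 UMIs in 269 control cells and 1 in 46 GC cells. Klf2 changed by -1.66 ± 0.48 (adjusted p = 0.0884, 5 control and 2 GC tumors) and Lef1 by -1.27 ± 0.36 (0.0787), and neither passed. Leaving out 1 tumor took Klf2 past the threshold without control replicate 2 (adjusted p = 0.0371) or GC replicate 5 (0.0424), Lef1 without control replicate 4 (0.0408) or GC replicate 3 (0.0132), and Tcf7 without GC replicate 3 (-2.44, 0.0457), where with both GC tumors it was -0.96 ± 0.72 (0.573). In this fit 2.12% of 6072 genes passed (1.07% higher, 1.05% lower) and 0 of 7 members did. Slamf6 was among these 7 in place of S1pr1, at 0.210 ± 0.200 in control and 0.260 ± 0.0449 in GC tumors. The change in CD8 2 minus that in CD8 1 was tested directly, and 0 of 5709 genes passed with limma (0%; 567 had an unadjusted p under 0.05). That difference was -0.18 ± 0.46 for Lef1, -0.45 ± 0.53 for Klf2 and -0.93 ± 0.79 for Tcf7.

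**Figure D4:**
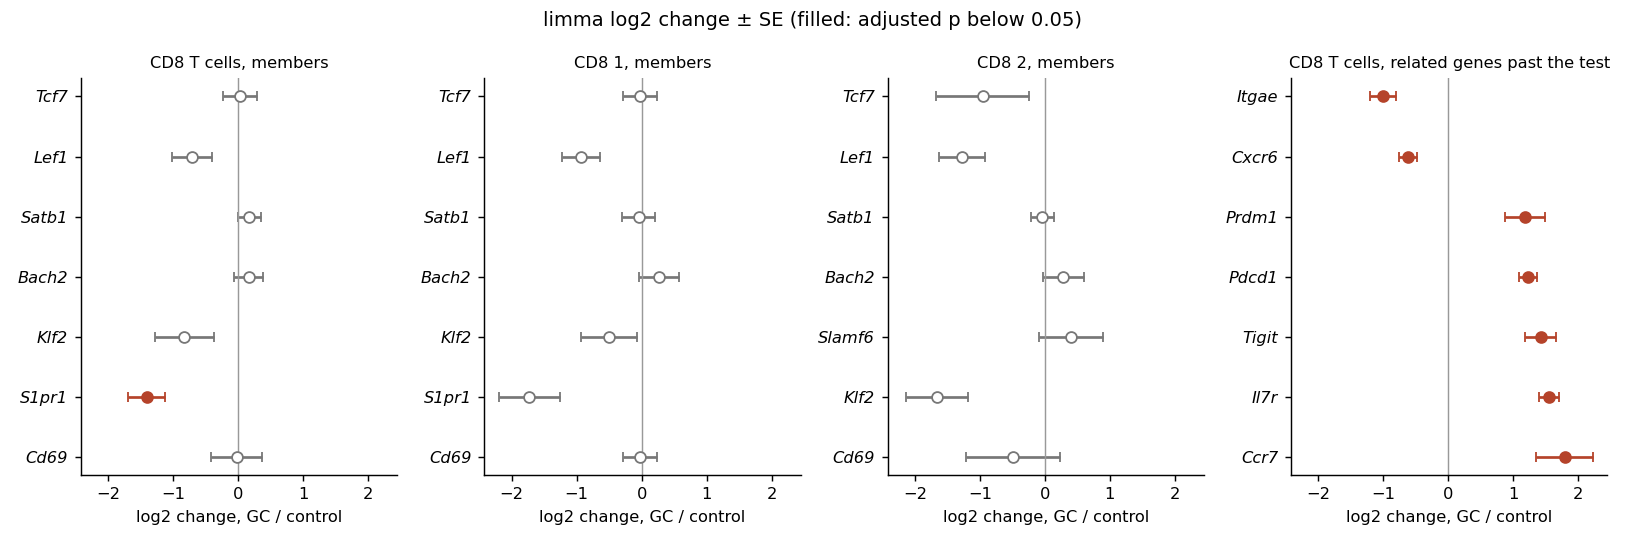
Log2 change after GC with its SE (horizontal axis) from limma for the members in CD8 T cells, CD8 1 and CD8 2, and for the related genes that passed in CD8 T cells. Filled red points have an adjusted p under 0.05. S1pr1 in CD8 T cells as a whole is the filled point among the members.

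Genes that work beside the members were taken from 4 lists (naive and egress, stem-like and memory, residency, exhaustion), and 33 of 44 were tested in CD8 T cells. Of these 5 were higher, 2 were lower and 26 did not pass, and their median log2 change was -0.16, beside -0.09 over all genes. For the members it was -0.02. Over all 6158 genes tested, 5.02% passed (2.27% higher, 2.74% lower). The lists were chosen with earlier results of these data known, so their counts cannot show that calls gather in them.

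Of 6 tested genes of the naive and egress list, 2 were higher. Il7r, the survival receptor of naive and memory T cells, was at 4.38, 4.08, 5.79, 4.75 and 4.77 in control and at 14.8, 15.4, 16.0, 11.5 and 11.2 in GC tumors, a change of 1.55 ± 0.15 (adjusted p = 0.000261) without overlap. Ccr7, the chemokine receptor that guides naive T cells to lymph nodes, was at 0.111, 0.511, 0.154, 0.139 and 0.336 in control and at 8.36, 0.674, 2.28, 3.49 and 0.645 in GC tumors. Its change was 1.79 ± 0.44 (adjusted p = 0.0406), and 6 of 107 GC cells held 92.5% of its UMIs. The call for Ccr7 was lost without control replicate 1 (adjusted p = 0.0952), 3 (0.0955), 4 (0.104) or 5 (0.0699), without GC replicate 3 (0.0733), with edgeR (0.101), without a filter on low values (0.107), with equal weights (0.0996), on log values (0.0542) and in cells without a macrophage marker UMI (0.0878).

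None of 10 tested genes of the stem-like and memory list passed in CD8 T cells with limma. The median of that list was -0.32. The list does not hold only genes that mark the same state, so its median does not measure the stem-like state. Within single clusters, 4 related genes were higher and 2 lower of 32 tested in CD8 1, and 2 higher and 3 lower of 33 in CD8 2. Over all genes, 2.46% passed in CD8 1 (1.45% higher, 1.01% lower) and 2.12% in CD8 2 (1.07% higher, 1.05% lower). Xcl1, a chemokine of stem-like CD8+ T cells, fell by 2.50 ± 0.39 in CD8 1 (adjusted p = 0.00544, 4 GC tumors). Bcl6, a repressor of effector fate, fell by 1.46 ± 0.30 in CD8 2 (0.0183, 2 GC tumors). Both were chosen after their values were seen. In CD8 T cells as a whole neither passed (Xcl1 -1.40 ± 0.37, adjusted p = 0.0529, Bcl6 -0.78 ± 0.28, 0.137). Xcl1 in GC replicate 4, outside that test, was at 1.51, above every control tumor.

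Of 10 tested residency genes, Itgae, the CD103 integrin that binds epithelium, fell by 1.00 ± 0.19 (adjusted p = 0.0128) and Cxcr6, a chemokine receptor of resident cells, fell by 0.62 ± 0.14 (0.0270). Prdm1, which encodes the effector regulator BLIMP1, rose by 1.18 ± 0.31 (0.0490). Cxcr6 lost its call without any of control replicates 1, 2, 3 and 5 (adjusted p 0.0727 to 0.0801), without GC replicate 5 (0.0571) without a filter (0.0708) or without cells holding a macrophage marker UMI (0.0600). Prdm1 lost it without any single control tumor (adjusted p 0.0787 to 0.118), without GC replicate 5 (0.0654), without those cells (0.0802), without cells holding a mature DC marker UMI (0.0556), without a filter (0.128), with equal weights (0.108) and with all 5 GC tumors (0.47, adjusted p = 0.610).

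Of 7 exhaustion genes, Pdcd1, which encodes PD-1, rose from 6.15 ± 0.871 to 14.4 ± 1.73, a change of 1.23 ± 0.14 (adjusted p = 0.000715). Tigit, another inhibitory receptor, rose by 1.42 ± 0.24 (0.00676). Lag3, also an inhibitory receptor, had a change of -0.70 ± 0.24 that did not pass (0.126), and in CD8 1 it fell by 1.51 ± 0.37 (0.0475), where Havcr2, which encodes TIM-3, rose by 1.04 ± 0.23 (0.0343). With all 5 GC tumors the Pdcd1 change was 0.77 (adjusted p = 0.246), GC replicate 1 being at 3.47.

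The other lymphoid clusters held 4 to 14 GC cells each, too few per tumor for a test, and CD8 4 held 0. The pooled UMIs per 10000 of each group are therefore set side by side with exact 95% Poisson intervals. In the CD4 cluster (10 GC cells, 6 from replicate 3) S1pr1 was at 1.53 after GC (0.877 to 2.49) and 4.06 in control (3.78 to 4.35), and in γδT cells (11 GC cells) at 0.904 (0.363 to 1.86) and 2.17 (1.68 to 2.76). In Tregs (14 GC cells) the intervals overlapped, at 1.11 (0.608 to 1.87) and 0.824 (0.728 to 0.930). The 4 GC NK cells held 0 UMIs of S1pr1 (interval up to 0.464), which includes the control value of 0.390.

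Tcf7 in the CD4 cluster was at 4.51 (3.31 to 5.99) after GC and 5.07 (4.76 to 5.40) in control, intervals that overlapped, and in γδT cells at 1.16 (0.531 to 2.21) and 4.18 (3.49 to 4.98), which did not. Lef1 in γδT cells went the other way, at 2.19 (1.28 to 3.51) and 0.626 (0.377 to 0.977). Trdc was at 2.04 in these GC γδT cells and 5.57 in control, and whether the cluster held the same cells in both groups was not tested.

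Bach2 was at 4.99 (3.72 to 6.54) after GC and 9.75 (9.32 to 10.2) in control in the CD4 cluster, and at 2.64 (1.64 to 4.04) and 11.6 (10.9 to 12.3) in NK cells. As given above, the GC cells of the NK cluster held no UMI of Klra8, and the CD4 cluster was not pure. Whether these clusters held the same cells in both groups was not tested. Satb1 in NK cells was at 5.29 (3.81 to 7.15) and 14.0 (13.2 to 14.7), and in Tregs at 10.8 (9.07 to 12.8) and 9.96 (9.61 to 10.3). In the CD4 cluster Satb1 was higher after GC, at 19.5 (16.9 to 22.3) and 15.0 (14.5 to 15.6). In γδT cells it was lower, at 3.49 (2.30 to 5.07) and 7.57 (6.63 to 8.62). Slamf6 in Tregs was at 2.38 (1.61 to 3.40) after GC and 0.943 (0.839 to 1.06) in control. Klf2 was at 4.37 (3.29 to 5.69) and 3.76 (3.55 to 3.98) in Tregs, with overlap, and Cd69 at 2.94 (2.07 to 4.05) and 4.26 (4.04 to 4.50), with slight overlap. Cd69 was higher after GC in the CD4 cluster, at 6.81 (5.32 to 8.59) and 3.23 (2.98 to 3.49). It was also higher in CD8 3 (7 GC cells), at 23.2 (19.6 to 27.3) and 8.17 (7.49 to 8.89). In NK and γδT cells the Cd69 intervals of the groups overlapped. With so few cells and tumors these intervals leave out the spread between tumors.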

How the data were processed

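CD45+ cells of 5 control and 5 GC-treated tumors were profiled by 10x 3' single cell RNA sequencing. The authors counted UMIs with Cell Ranger 7.1.0 on mm10 with introns included, kept cells with 1 hashtag, removed outlier cells, and integrated and clustered the cells in Seurat 5.0.3. The expression values that the authors deposited are the natural log of 1 plus UMIs per 10000, without batch correction. The deposited cell table gives per cell the count of UMIs and of genes, the percent of mitochondrial UMIs, the hashtag and the cluster. Whole UMIs, within 0.01, were recovered for 100% of 10330441 values above 0. Doublets within a tumor were not removed, and no doublet caller was run. The number of sample columns left unused was 0.

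The tumor was the replicate, numbered by hashtag. Linear values were averaged per tumor and log2(mean + 0.1), which understates changes of low genes, was compared with limma 3.58.1 in R 4.3.3 (trended, robust), on genes with a mean of at least 0.2 and tumors with at least 10 cells (5 in single CD8 clusters), with Benjamini-Hochberg (BH) adjustment over all genes and a threshold of 0.05. Shares of cells were taken after thinning to 2000 UMIs (100 draws), which left out 23 control and 3 GC CD8 T cells. Alternatives were edgeR 4.0.16 or DESeq2 1.42.0 on summed UMIs, other pseudocounts, filters, scalings and cell minima, and leaving out each tumor. Leaving out cells with markers of other cell types, and the 5-cell minimum for γδT cells, were chosen after seeing the data. The code was tested on simulated data. Motifs were searched in RefSeq windows. The members and lists were chosen with earlier results of these data known. Named genes were the members, each related gene that passed in CD8 T cells, and the 3 genes most like Tcf7, Klf2 and Cd69. Xcl1, Bcl6, Lag3 and Havcr2, outside this rule, were chosen after their values were seen. The result of 1 related gene is not reported here.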

Additional observations from a re-analysis of the deposited data

Results flagged for a closer look

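In 63 groups of 4 or 5 control tumors, 5 held a tumor that stood apart from the rest, its gap to the nearest tumor being more than 0.71 of the range for 5 tumors or 0.829 for 4. Chance gives this in about 1 of 20 groups. All values are UMIs per 10000.

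Klf2 in NK cells was at 6.03 in control replicate 1, and the other 3 tumors lay between 1.84 and 2.45. Slamf6 in control replicate 5 was high in CD8 2, at 0.557 against 0.0653 to 0.181 in the other tumors, and so in the CD8 T cells as a whole, at 0.322 against 0.0876 to 0.142. These are the same cells in part, since CD8 2 is a cluster of the CD8 T cells. Id3 stood apart in control replicate 5 of Tregs, at 0.261 against 0.00848 to 0.0385, and in control replicate 4 of the CD4 cluster, at 0.119 against 0.0606 to 0.0725. Id3 levels of this size rest on few UMIs.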

How the results depend on the processing

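S1pr1 stayed lower in CD8 T cells under every alternative run, and members and counts of genes changed side as follows. Against 309 genes called in CD8 T cells, 604 were called with at least 20 cells per tumor, 195 with at least 5, 501 with CD8 1 and CD8 2 weighted equally (a fit that also drops GC replicate 2) and 167 without a filter on low values. Leaving out 1 tumor gave 135 to 604, the highest without GC replicate 2, the same fit as at least 20 cells. In CD8 1 (151 called) a minimum of 10 cells gave 395, edgeR 235 and leaving out 1 tumor 46 to 237. In CD8 2 (129 called) leaving out 1 tumor gave 63 to 146. For CD8 2 minus CD8 1 (0 called) a pseudocount of 0.5 gave 2 and leaving out 1 tumor 0 to 17. Members called (1) were 2 with at least 20 cells and with equal weights, 0 on the mean of log values, and 0 to 2 without 1 tumor.

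Some log2 changes turned sign, and the cause was not tested. In CD8 T cells, a minimum of 20 cells and equal weights gave -0.32 and -0.22 for Tcf7 and -0.063 and -0.13 for Satb1. Both fits drop GC replicate 2, and the first is the same fit as leaving that tumor out. Cd69 gave 0.011 with a pseudocount of 0.5, 0.048 with median-of-ratios scaling, 0.50 with edgeR, 0.50 with DESeq2 and 0.081 without cells holding a macrophage marker UMI. Tcf7 in CD8 1 gave 0.20 with edgeR, and Klf2 in CD8 2 minus CD8 1 gave 0.22 with a pseudocount of 0.5. Leaving out 1 tumor gave -0.32 to 0.38 for Tcf7, -0.063 to 0.34 for Satb1, -0.0067 to 0.30 for Bach2 and -0.58 to 0.63 for Cd69 in CD8 T cells. It gave -0.95 to 0.0013 for Klf2 and -0.19 to 0.15 for Tcf7 in CD8 1, and -2.44 to 0.52 for Tcf7 in CD8 2. In CD8 2 minus CD8 1 it gave -1.02 to 0.67 for Lef1 and -2.35 to 0.49 for Tcf7. The difference in the share of CD8 T cells with Tcf7 lay between -1.87 and 4.22 percentage points, and for Tcf7 with Pdcd1 between 0.896 and 3.09. In CD8 2, leaving out a GC tumor left 1, whose spread was taken to be that of the other tumors.

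No paired analysis was possible because control and GC tumors share no animal, and hashtag numbers only name them. Depth limited Slamf6 and Id3 in CD8 T cells and S1pr1 in CD8 2, and few GC tumors (3 in the main CD8 T cell test) limit precision.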
